A study of Mus musculus with 36 samples.

Results

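Of the 3217 sites bound by CLOCK:BMAL1 (CLK:BMAL1 in the list) in mouse liver, 500 (15.5%) lay within 1500 bp of another listed site. These clustered sites were found by position alone. The midpoint of each 3 kb window was taken per chromosome, and a site was a member when its nearest other midpoint lay 1500 bp or less away. The other 2717 sites are called the remaining sites. Linking every member to its close neighbours gave 226 clusters with 274 pairs of adjacent sites.

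CLOCK and BMAL1 form the dimer that drives transcription in the circadian clock. It binds short DNA elements called E-boxes at clock genes, among them the genes of its own repressors, and at many genes with daily rhythms in liver. At some clock genes several E-boxes stand near each other, and pairs of E-boxes can be bound together. H2A.Z is a variant of histone H2A that is common in the nucleosomes beside promoters and other bound sites.

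The study measured H2A.Z nucleosomes by chromatin immunoprecipitation after digestion with micrococcal nuclease, an enzyme that cuts the DNA between nucleosomes. Livers came from adult C57BL/6 mice aged 3 to 6 months held on a light cycle of 12 h on and 12 h off, at ZT02, ZT06, ZT10, ZT14, ZT18 and ZT22, where ZT counts hours from lights on. The libraries with values are 24 from wild-type mice (WT, series 11, 12, 25 and 26, with 4 per time) and 6 from Bmal1-/- mice (BM, series 5, with 1 per time). The labels list 6 more samples, BM series 8, that were not analysed here, and they do not say which libraries came from separate animals. They name the source of WT series 11 and 12 and BM series 5 in one way and that of WT series 25 and 26 in another, and these are used as 2 sets of libraries. Absence of BMAL1 in the BM mice could not be checked in these files.

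The H2A.Z values are averages over sets of sites, and no set holds the clustered sites alone. What follows on the clustered sites therefore comes from the site list, which gives positions in mm9, a class of location and a list number. The list is 1 list without replicates. Gene names are not given with the sites, and no genome of this build was used here, so sites are named by position and no sequence is shown.

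Most clusters were pairs. There were 191 clusters of 2 sites (84.5%), 25 of 3, 8 of 4, 1 of 5 and 1 of 6, and the 35 clusters of 3 or more held 118 of the clustered sites (23.6%). From first to last midpoint a pair spanned a median of 335 bp, and a cluster of 3 spanned 635 bp. The 10 clusters of 4 or more spanned 740 to 2660 bp, with a median of 1815 bp.

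Adjacent midpoints were mostly closer than 500 bp. The median spacing was 335 bp (quartiles 240 and 677.5 bp, range 5 to 1500 bp, n = 274 pairs), and 125 pairs (45.6%) lay 200 to 400 bp apart. Up to 500 bp there were 36.8 pairs of adjacent sites per 100 bp of distance. From 500 to 1500 bp there were 9.0, from 1500 to 2000 bp 6.6, and from 2000 to 3000 bp 4.2. The density therefore fell across the limit of 1500 bp without a gap there. Just inside it, at 1500 bp, were a pair of intergenic sites on chromosome 17 (29533711 to 29534090 and 29535161 to 29535640). Just outside, at 1510 bp, were a pair of sites at transcription start sites (TSS) on chromosome 10 (80753911 to 80754231 and 80755491 to 80755670).

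In many pairs the bound intervals were not clearly separate stretches of DNA: 137 of 274 (50%, 95% Wilson interval 44.1 to 55.9%) overlapped or lay at most 10 bp apart. The peaks overlapped in 64 pairs (23.4%), by a median of 154 bp, and in 11 of these 1 peak lay inside the other. In another 73 pairs (26.6%) they lay 0 to 10 bp apart, exactly 10 bp in 69. Such overlapping or abutting peaks made up 261 of the clustered sites (52.2%). The other 137 pairs had a median of 341 bp between their edges (range 11 to 1241 bp) and a median midpoint spacing of 680 bp.

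**Figure D1:**
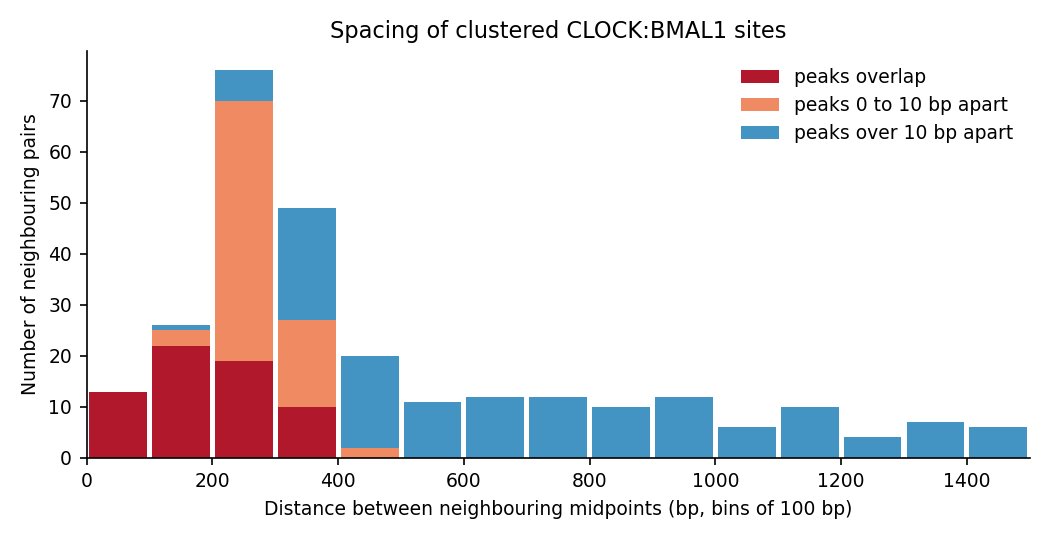
Number of adjacent pairs of clustered sites by the distance between their midpoints (bp, bins of 100 bp), stacked by whether the 2 peaks overlap, lie 0 to 10 bp apart or lie further apart. The highest bar, from 200 to 300 bp, holds 76 pairs, of which 51 lie 0 to 10 bp apart and 19 overlap, and above 500 bp every pair is over 10 bp apart.

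The closest midpoints belonged to nested or nearly identical intervals. The 5 bp pair on chromosome 16 was an intergenic peak from 5134941 to 5135141 inside another from 5134891 to 5135200. The 15 bp pair, at a TSS on chromosome 5, ran from 45841571 to 45841970 and from 45841581 to 45841990, with list numbers 613 and 624. Of 2 pairs at 25 bp, the one with the lower list numbers, in an intron on chromosome 10, ran from 74975411 to 74975890 and from 74975481 to 74975870, with list numbers 702 and 720. The other was on chromosome 18, with numbers 709 and 756. The list thus gives some bound stretches more than once.

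Joining overlapping and abutting peaks into 1 site, a step chosen after the data were seen, left 3080 sites. Of these, 259 (8.41%) were clustered, in 123 clusters. In 102 of the 226 clusters (45.1%) all peaks fell into 1 joined site. Of the joined clusters 112 were pairs, 9 held 3 sites and 2 held 4.

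The largest cluster held 6 sites, all intergenic and beyond 10 kb, on chromosome 1 between 193268131 and 193270650. Its spacings were 315, 635, 85, 555 and 520 bp, and 2 of its 5 adjacent pairs overlapped. Its list numbers were 479, 2656, 1202, 260, 184 and 2197, so sites far apart in the list stood side by side.

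The cluster of 5, on chromosome 11 between 98634141 and 98637181, differed in that every site stood near the head of the list. Along the chromosome it had 3 intron sites with list numbers 72, 10 and 11 and then 2 TSS sites with numbers 7 and 38. The intron and TSS groups were 1145 bp apart.

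There were 8 clusters of 4, and the 3 described here are those that hold the lowest list numbers, so their places in the list say nothing of clusters of 4 in general. On chromosome 3 a cluster of 4, with list numbers given here in order, ran without a gap of more than 10 bp from 95685771 to 95687090. It had 1 intron site (2277) followed by 3 TSS sites (4, 299 and 668). A cluster of 4 on chromosome 19 (23209351 to 23211460), with 1 intron site and 3 other gene body sites, had list numbers 2185, 20, 277 and 2281, the last inside the peak numbered 277. A cluster of 4 on chromosome 15, between 38498151 and 38499460, was intergenic beyond 10 kb and had numbers 61, 1041, 2837 and 2251.

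**Figure D2:**
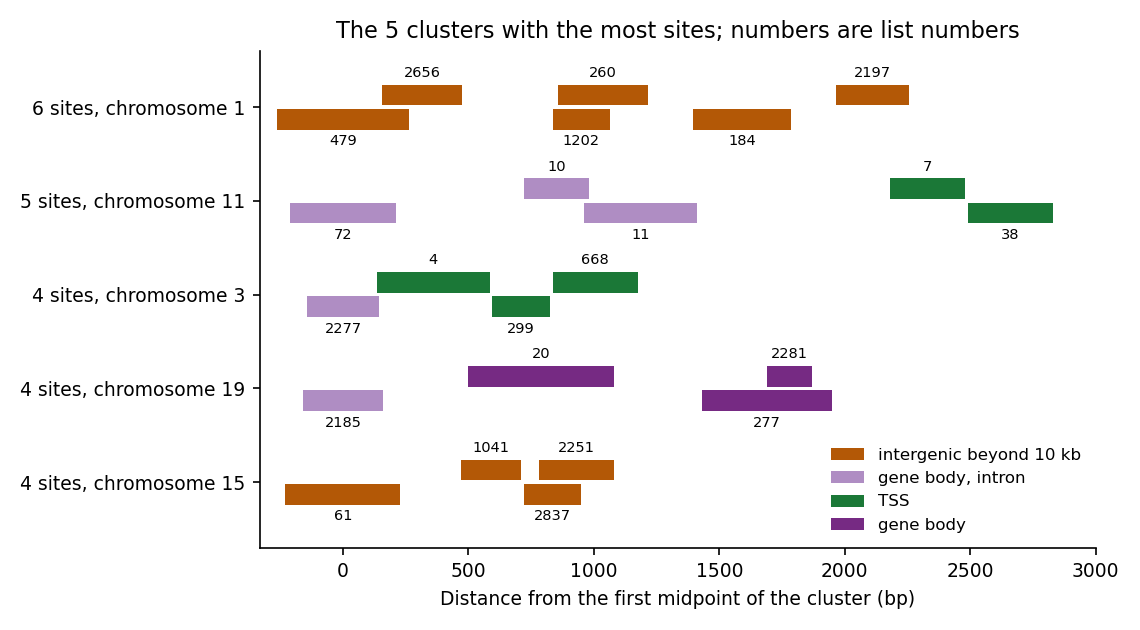
Peaks of the clusters of 6 and 5 sites and of the 3 of 8 clusters of 4 that hold the lowest list numbers, placed by distance from the first midpoint of the cluster (bp) and coloured by location class, with list numbers beside the bars and alternate peaks shifted up for sight. The chromosome 3 cluster forms 1 nearly unbroken stretch, and the chromosome 11 cluster splits into an intron group and a TSS group 1145 bp apart.

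Clusters also held the head of the list. Sites 1 and 18 formed a pair on chromosome 7, a TSS site from 52960041 to 52960760 and an intron site from 52961201 to 52961730, with midpoints 1065 bp apart. Sites 2 and 8 formed an intergenic pair of the class within 10 kb on chromosome 11, from 68908211 to 68908501 and from 68908511 to 68908830, 10 bp from edge to edge. Site 13, at a TSS on chromosome 1 from 93355801 to 93356370, overlapped site 1125, from 93356181 to 93356600.

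Among the first 10 sites of the list 6 were clustered, among the first 50 there were 21, and among the first 100 there were 34. Among the first 250 the share was 25.6% (64 sites, 95% Wilson interval 20.6 to 31.4%), against 14.7% (436 of 2967, interval 13.5 to 16%) of the sites numbered above 250. The share was the higher in the first 250 in each class: 23.2% against 15.6% at TSS, 24.6% against 13.6% in gene bodies, 29.8% against 13.3% beyond 10 kb and 28.6% against 22.3% within 10 kb. With overlapping and abutting peaks joined, 32 of 244 sites that include 1 of the first 250 were clustered (13.1%, interval 9.45 to 17.9%), against 8.0% of the others (227 of 2836, interval 7.06 to 9.06%). The boundary of 250 was chosen after the values were seen, so these shares have no test. Wilson intervals treat sites as independent, which sites of 1 cluster are not.

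What the list number orders by is not given in the sources used here. Wider peaks had lower numbers (Spearman rho -0.52 over the 3217 sites). Beyond the first 500 the share stayed between 11.6% and 16% per 250 sites up to number 3000, and in the last 217 sites it was 19.4%. Over all sites the mean list number was 1530 in clustered and 1624 in remaining sites, a difference of -94.1 (SE 51.2, 95% interval -194 to 6.24). This missed the threshold (adjusted p = 0.198, least squares over all sites with errors grouped by cluster, adjusted over 6 comparisons, n = 3217).

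**Figure D3:**
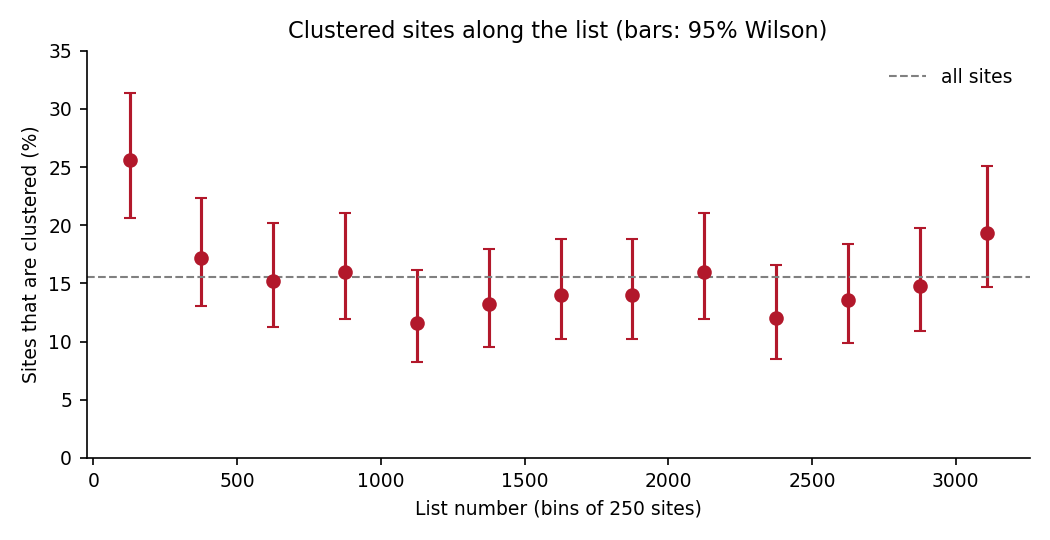
Share of sites that are clustered (%) in bins of 250 list numbers, the last bin holding 217 sites, with 95% Wilson intervals and a dashed line at the share of all sites, 15.5%. The first bin, at 25.6%, lies with its whole interval above the line, and the other bins run from 11.6% to 19.4%. The intervals treat sites as independent, and the bins were not tested.

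Within a cluster the sites were unlike in list number. The list numbers of adjacent clustered sites had a Spearman rho of 0.10 (n = 274 pairs), and their median difference was 897.5 places. For adjacent sites 1500 bp to 10 kb apart the rho was -0.04 and the median difference 979 places (n = 284 pairs). The site with the lowest number in each cluster, called its lead, had a median number of 770.5, and the others had 2194.5. Of the leads 54 of 226 (23.9%) were in the first 250, and of the others 10 of 274 (3.65%). The direction of both contrasts follows from the choice of leads by list number. In 7 clusters more than 1 site was in the first 250.

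Leads were also the wider sites. Their median width was 330 bp (quartiles 260 and 406.75 bp), that of the other clustered sites 280 bp (220 and 339 bp) and that of remaining sites 309 bp (250 and 379 bp). The lead was the wider site in 126 of 191 pairs (66%). As leads are chosen by list number, which goes with width, these values only describe the clusters.

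Clustered sites as a whole had a mean width of 313 bp ± 100 (SD, n = 500), against 321 bp ± 89.4 (SD, n = 2717). The difference of -7.84 bp (SE 4.94, 95% interval -17.5 to 1.83) missed the threshold (adjusted p = 0.224, n = 3217). At a given list number clustered sites were narrower: with the number as a covariate the difference was -12.6 bp (SE 4.06, adjusted p = 0.0112, n = 3217). Clustered sites that overlap or abut a neighbour were 300.2 bp wide on average and the other clustered sites 327 bp. Without the touching sites the difference without a covariate was 6.37 bp (SE 6.88, adjusted p = 0.426, n = 2956), and with touching peaks joined it was 13.5 bp (SE 8.24, adjusted p = 0.153, n = 3080). The 2 sites under 120 bp wide in the list, a width picked after the values were seen, were both clustered and both touched a neighbour.

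The list has 4 main classes of location and does not say from what the 10 kb of its intergenic classes are counted. Clustering occurred in every class. Of the TSS sites 95 of 583 were clustered (16.3%), of gene body sites 235 of 1623 (14.5%), of intergenic sites beyond 10 kb 103 of 717 (14.4%) and of intergenic sites within 10 kb 67 of 294 (22.8%). Intergenic sites within 10 kb thus made up 13.4% of the clustered and 8.35% of the remaining sites. The difference was 5.05 percentage points (SE 2.29, 95% interval 0.560 to 9.53, unadjusted p = 0.0275, n = 3217), and it failed the correction (adjusted p = 0.165, n = 3217). Without chromosome 7 it was 3.19 points (adjusted p = 0.312, n = 2991). With only the site of lowest list number in each cluster it was 5.36 points (unadjusted p = 0.0225, n = 2943).

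The other classes differed by less. TSS sites were 19% of clustered and 18% of remaining sites, a difference of 1.04 points (95% interval -3.70 to 5.78, adjusted p = 0.667, n = 3217). Gene body sites were 47% and 51.1%, a difference of -4.09 points (-10.6 to 2.47, adjusted p = 0.333, n = 3217). Intergenic sites beyond 10 kb were 20.6% and 22.6%, a difference of -2.0 points (-7.82 to 3.82, adjusted p = 0.601, n = 3217). Of the gene body sites, 206 clustered sites carried the intron label (41.2% of all clustered sites), against 44.4% of the remaining sites.

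**Figure D4:**
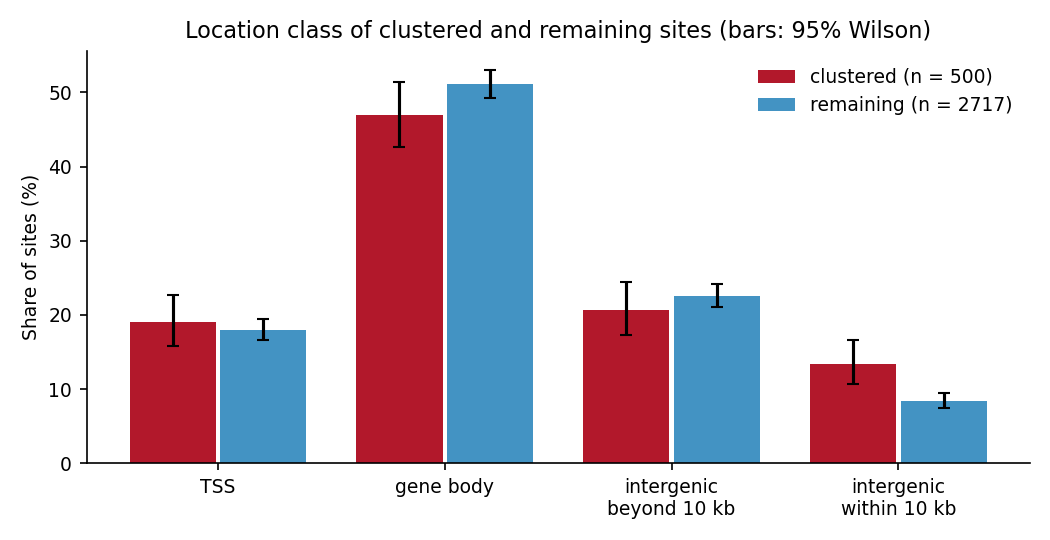
Share of clustered (n = 500) and remaining (n = 2717) sites in each class of location (%), with 95% Wilson intervals. Intergenic sites within 10 kb are 13.4% of clustered and 8.35% of remaining sites, and in the other classes the intervals of both groups overlap.

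Adjacent clustered sites usually shared a class. This held for 240 of 274 pairs (87.6%, 95% Wilson interval 83.2 to 91%), against 69% (63.4 to 74.1%) of adjacent sites 1500 bp to 10 kb apart and 48.1% (44.6 to 51.6%) of those 10 to 100 kb apart. Of touching pairs 94.9% shared a class, and of pairs over 10 bp apart 80.3%. These shares were not tested, and a class covers a stretch of DNA, so near sites share it more readily.

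By class, 116 pairs lay within gene bodies, 58 were intergenic beyond 10 kb, 35 were at TSS and 31 were intergenic within 10 kb. The most common mixed pair joined a TSS and a gene body site, with 23 pairs, and 9 joined a TSS site and an intergenic site within 10 kb. The TSS and gene body pairs were spaced more widely, with a median of 620 bp (quartiles 440 and 1055 bp). Pairs of TSS sites had a median of 330 bp (245 and 382.5 bp) and none was more than 870 bp apart. Only 4 of the 23 TSS and gene body pairs touched (17.4%), against 20 of 35 pairs of TSS sites (57.1%). Of all clusters 60 (26.5%) held a TSS site, 29 of them nothing else.

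Intergenic sites beyond 10 kb were the most often in touch with a neighbour, 67 of 103 clustered sites (65%), against 49.4% in gene bodies, 50.7% within 10 kb and 46.3% at TSS. They were also the most often in clusters of 3 or more, with 31.1% against 16.8% at TSS. These shares have no test. With touching peaks joined, intergenic sites beyond 10 kb were 15.8% of clustered and 22.7% of remaining sites (difference -6.89 points, SE 3.52, adjusted p = 0.150, n = 3080).

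Chromosomes differed in how many of their sites were clustered. The share was highest on chromosome 15, with 42 of 153 sites (27.5%, 95% Wilson interval 21 to 35%), then on chromosome 3 (23.9%) and chromosome 7 (20.8%). It was lowest among the autosomes on chromosome 6, with 14 of 166 (8.43%, 5.09 to 13.7%), and was 8.88% on chromosome 10, 9.05% on chromosome 2 and 9.23% on chromosome 13. Chromosome X had 0 of 10, which allows a share of up to 30% at 3 counts. Across the 19 autosomes the share did not follow the number of sites (Spearman rho 0.02, a description). That number takes no account of chromosome length. The median spacing of sites was 57860 bp on chromosome 15, the smallest, 155505 bp on chromosome 3 and 106730 bp on chromosome 7. It was 197375 bp on chromosome 6, 165612 bp on 10, 286480 bp on 2 and 332250 bp on 13. Whether the share goes with spacing was not tested.

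Seen from outside, clusters stood nearer to a further site than remaining sites did to theirs. The nearest site outside a cluster was a median of 33550 bp from its outermost midpoint (quartiles 10006 and 137274 bp, n = 226). For remaining sites the nearest site was 72420 bp away (17540 and 240010 bp, n = 2717). Both distances exceed 1500 bp by construction, a cluster has an edge on each side, and the gap was not tested.

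The clustered sites count more than once in the average H2A.Z profiles. Their 500 windows cover only 53.9% as much distinct DNA as their summed length, so 46.1% of it is repeated, against 0.596% for the remaining sites. This contrast follows from the rule, since windows of 3 kb with midpoints at most 1500 bp apart must overlap. Over all sites the repeated share is 7.78%. By class it is 5.50% at TSS, 6.71% in gene bodies, 7.26% beyond 10 kb and 9.32% within 10 kb.

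H2A.Z at the distance of the neighbour can be read only from the profile of all sites, which its label gives as 3216 sites. In it the WT signal was 20.2 ± 4.16 at the midpoint, 31.5 ± 7.30 at 200 bp, 20.2 ± 3.71 at 500 bp and 12.8 ± 1.82 at 1000 bp (SD, n = 24, authors' scaled units). The nearest neighbour of 73 of the clustered sites (14.6%) stood 150 to 230 bp away, at the height of this profile, and that of 281 (56.2%) over 300 bp away, on its falling side. Most neighbours thus stood beyond the highest part of the average profile, but not beyond its raised signal. In WT this was still 27.2 ± 5.84 at 300 bp (SD, n = 24). At 330 bp, the median distance to the nearest neighbour, it was 25.7 ± 5.42 (SD, n = 24), above that at the midpoint.

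**Figure D5:**
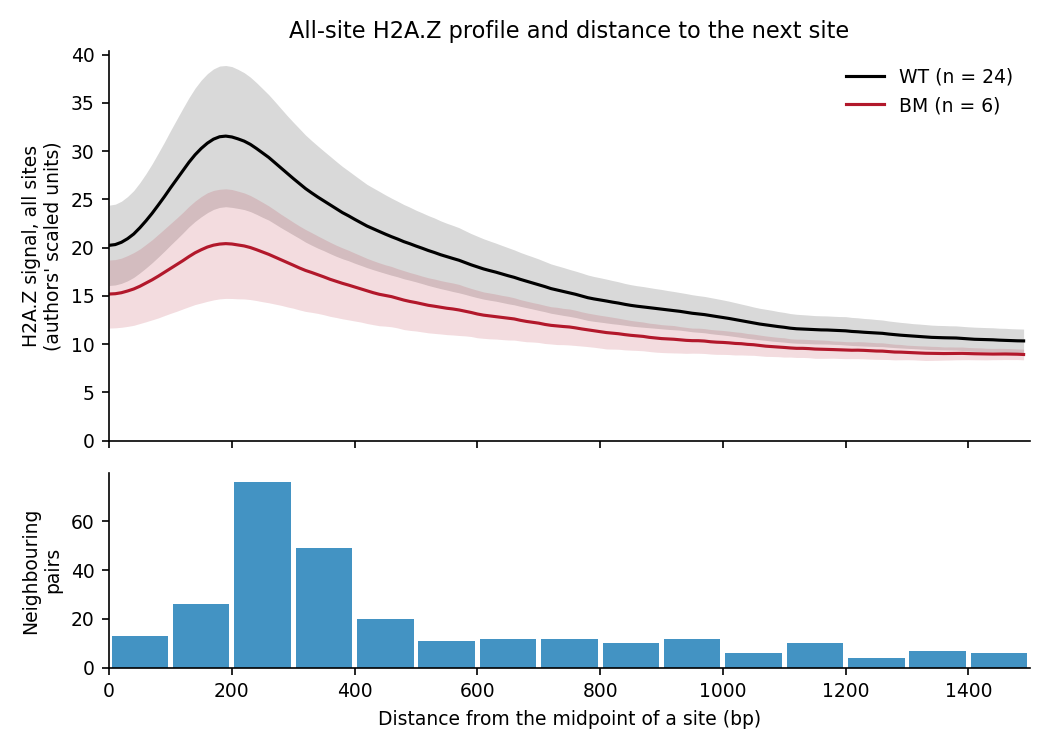
Upper panel: mean H2A.Z signal of all sites (authors' scaled units) by distance from the midpoint (bp), with both sides averaged, in WT (n = 24 libraries) and BM (n = 6), shading ± 1 SD. Lower panel: number of adjacent pairs of clustered sites per 100 bp of midpoint distance, with 125 of 274 pairs at 200 to 400 bp, from the top of the profile down its falling side.

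Averaged over the neighbour distances of the 500 clustered sites, the all-site signal in WT ran from 13.5 through a median of 22.6 to 31 (n = 24 libraries). In BM it ran from 11.4 through 16.3 to 20.3 (n = 6). The ranges overlap, but at each of the 6 times the 4 WT libraries all stood above the BM library. The log2 difference was -0.54 (SE 0.15, exact permutation within time, p = 0.000128, adjusted p = 0.000288 over 3 tests), and within the first set of libraries (WT series 11 and 12 with BM) it was -0.37 (exact permutation p = 0.00137, the smallest possible). This difference comes from the same profiles in which BM is lower over all sites, and 1 BM series cannot be told apart from the genotype. With the mean from 300 to 1500 bp, which uses no member distance, it was -0.39 (exact permutation within time, p = 0.000384). The difference is thus one of the all-site profile, not of clustered sites in particular.

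Relative to the height of the profile (the mean from 150 to 230 bp), the signal at the neighbour distances was 0.749 ± 0.0267 in WT (SD, n = 24) and 0.801 ± 0.0471 in BM (SD, n = 6). The log2 difference was 0.09 (SE 0.04, exact permutation within time, p = 0.000192, adjusted p = 0.000288). At 5 of 6 times the BM library had a ratio above those of all 4 WT libraries. The log2 difference was 0.07 within the first set (exact permutation p = 0.00412). With the mean from 300 to 1500 bp, which uses no member distance, it was 0.24 (exact permutation within time, p = 0.000128). This difference, too, is one of the all-site profile and not of clustered sites in particular. The height itself was lower in BM, 20.2 ± 5.59 (SD, n = 6) against 31.1 ± 7.19 (SD, n = 24), and the part of this in the ratio was not tested. Here too the 6 BM libraries are of 1 series, which cannot be told apart from the genotype. The permutation treats them as separate units.

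By class, this ratio at the neighbour distances of the members of that class was 0.784 ± 0.0171 at TSS, 0.735 ± 0.0364 in gene bodies and 0.771 ± 0.0248 beyond 10 kb in WT (SD, n = 24). In BM it was 0.805 ± 0.0288, 0.808 ± 0.0578 and 0.816 ± 0.0476 (SD, n = 6). These class values were not tested.

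Over the day in WT the ratio was lowest at ZT02, 0.733 ± 0.0176, and ZT06, 0.733 ± 0.0178, and highest at ZT22, 0.783 ± 0.0344 (SD, n = 4 each). A cosinor, a cosine of period 24 h, gave an amplitude of 0.0352 on the log2 scale (SE 0.0133) with its peak at ZT19.6 (permutation p = 0.0485, adjusted p = 0.0485). It missed the threshold in each set of libraries alone. The amplitude was 0.0304 in the first set (permutation p = 0.212), and the second set had 0.0399 (permutation p = 0.143). Without series 12 the permutation p was 0.265, and without series 26 it was 0.2397. With the mean from 300 to 1500 bp, which uses no member distance, the amplitude was 0.0941 (permutation p = 0.0438). The pattern is thus not particular to the neighbour distances. At ZT22 the WT signal at the neighbour distances was also the lowest, 18.1 ± 5.09 (SD, n = 4). At the other times its mean was 22.1 to 25.3. The height of the profile at ZT22 was 16.5, 19.6, 23.3 and 34.2 in series 26, 12, 11 and 25. The ratio, in the same order, was 0.816, 0.799, 0.782 and 0.736. The part of the height in the pattern over the day was not tested.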

How the data were processed

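The assay was H2A.Z ChIP-seq of liver. Per the submitters' processing notes, CASAVA 1.7 and Bowtie were used, with the build mm9. The deposited signal (coverage) is the mean that the authors made per library over a set of sites, with duplicates removed per the row labels. How it was scaled, and the depth behind it, is not given in the sources used here. Positions and classes of location come from the site list as deposited, and the authors' class of each site was used as it stands. The peak caller is not given in the sources used here, and the site names carry the word Koike. All starts end in 1, so positions lie on a grid of 10 bp. No column was left without a sample.

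Width was end minus start. The 6 comparisons of site properties were least squares fits over 3217 sites (statsmodels 0.14.6, Python 3.11.15) with sandwich errors grouped by cluster and Benjamini-Hochberg adjustment. They measure the spread between sites of 1 list. Libraries were compared by exact permutation of the genotype within time (15625 assignments, two-sided) and rhythm by 100000 permutations, and these p-values reflect only how far the libraries vary, which may be technical. Profile positions were taken as 10 bp apart (299 per profile). The fits were tested on simulated data. The simulated libraries varied independently, so the p-values were not checked for libraries of 1 series that vary together. Alternatives were limits of 1000 and 3000 bp, 1 site per cluster, pairs only, peak midpoints, covariates, joined peaks, leaving out each chromosome or WT series, and each set of libraries. For H2A.Z they also included the mean from 300 to 1500 bp, permutation over all libraries and the series number as a block. Intervals cover counting error only.

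The sites, tests and named clusters were chosen with earlier results of these data known. Named were the 5 clusters with the most sites, the 5 with the lowest list numbers, the 3 closest pairs (ties in each going to the lowest list number) and the 2 sites on each side of the limit.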

Additional observations from a re-analysis of the deposited data

Results flagged for a closer look

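H2A.Z signal at the neighbour distance and its ratio to the height of the profile were examined in 48 groups of 4 WT libraries, 24 for each. A library stood far from the other 3 in 3 groups, all for the ratio, where chance gives about 1 in 20 groups. The ratio at TSS at ZT10 was 0.818 for WT series 11, where the other 3 had 0.770 to 0.777. At TSS at ZT22 WT series 25 had 0.771, against 0.801 to 0.806. In gene bodies at ZT02 WT series 25 had 0.675, against 0.724 to 0.731.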

How the results depend on the processing

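Of 89 alternative values, 76 kept their direction and their side of the threshold. Those with peak midpoints equal the main values, as window and peak midpoints lie within 0.5 bp of each other for all 3217 sites. Permuting over all libraries or within a series could change only the p-value, not the direction. The 76 values are therefore not independent checks. With members within 3000 bp the TSS difference was -0.23 points and the gene body difference 0.23 points. Without chromosome 2 the TSS difference was -0.27 points. Counting only leads, which are picked by list number, the width difference was 25.4 bp and the list number difference -658. The width difference also turned with touching peaks joined (13.5 bp) and without touching sites (6.37 bp). It passed with list number as a covariate (-12.6 bp). With leads only the intergenic share within 10 kb differed by 5.36 points (unadjusted p = 0.0225 with n = 2943, against 0.0275 with all members). Its adjusted p of 0.0450 (n = 2943) passes only because width and list number, which the choice of leads fixes, are adjusted with it. The joined and touching settings were chosen after seeing the data. The cause of these changes was not tested.

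Leaving out each WT series in turn gave log2 differences of -0.60 to -0.44 for the signal at the neighbour distance and 0.08 to 0.10 for its ratio, with no change of call. The amplitude of the ratio ran from 0.0281 to 0.0446 and was lost without series 12 or 26, and in each set of samples alone (0.0304 and 0.0399). With the series number as a replicate block it stayed 0.0352 (permutation p = 0.0107). Of 60 pairs of WT libraries with the same number at different times, 44 had deviations with a correlation above 0.1 (lowest -0.93, median 0.51), against 70 of 180 pairs with other numbers (median -0.23). Deviations were taken from the mean of the WT libraries at each time. Positive correlations within a number therefore pull those between other numbers down, and the -0.23 is not a separate background. The numbers thus do not pair all libraries, but 13 of 24 libraries correlated best with their own number. This is more than the pair counts alone would give, as pairs with the same number were the fewer (60 against 180). WT libraries of a series thus tended to vary together. Whether the BM libraries did so was not tested, and the permutation of the genotype treats them as separate units. Depth is unknown for both files.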
